A study of Homo sapiens with 4 samples.

Results

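Catecholamines are the amine transmitters of sympathetic neurons and of the adrenal medulla, and 9 genes that make, move and break them down were followed in SK-N-BE(2)C cells. The genes were taken by symbol from the deposited count table, and all 9 were found among its 55765 symbols. They are the synthesis genes TH, GCH1, DDC and DBH, the vesicle transporter genes SLC18A1 and SLC18A2, the noradrenaline uptake gene SLC6A2, and the breakdown genes MAOA and MAOB. SK-N-BE(2)C is an established human neuroblastoma line, a clonal subline of tumour cells with amplified MYCN, so the model is 1 line in culture. Cells of the first group received 10 µM all-trans retinoic acid (ATRA) for 144 h. Cells of the second received ethanol, the solvent, for the same time, and no other agent or genetic change separates the groups. Each group has 2 RNA-seq libraries, called here libraries 1 and 2 after their titles, in which 1 library of each group is unnumbered and the other carries the number 2. Nothing in the labels says whether the 2 libraries of a group stem from separate cultures. The p-values below may thus rest on technical spread between samples alone.

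In the pathway, tyrosine hydroxylase (TH) turns tyrosine into L-DOPA with the cofactor tetrahydrobiopterin, whose synthesis begins with GTP cyclohydrolase (GCH1). DOPA decarboxylase (DDC) makes dopamine, which the vesicular monoamine transporters carry into vesicles, where dopamine beta-hydroxylase (DBH) converts it to noradrenaline. VMAT1, encoded by SLC18A1, is the form typical of endocrine chromaffin cells, and VMAT2, encoded by SLC18A2, that typical of neurons. The noradrenaline transporter (SLC6A2) returns released transmitter to the cell, and the mitochondrial monoamine oxidases A and B oxidise amines in the cytosol. Neuroblastoma arises from the sympathoadrenal lineage, and release of catecholamine metabolites is a clinical hallmark of the tumour.

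Libraries held between 12850462 and 19883465 counted reads. All 10 neuroblastoma markers were measured in every group, with summed levels of 4830 and 5635 CPM (counts scaled to the depth of each library) with ATRA and 8655 and 7579 CPM with ethanol (libraries 1 and 2). All 10 were tested, and 2 were called lower, 0 were called higher and 4 had an unadjusted p under 0.05 (edgeR quasi-likelihood), where 0.153% of all genes were called lower. CHGA, the gene of the dense-core vesicle protein chromogranin A, had 187 and 235 CPM with ATRA and 2511 and 1605 CPM with ethanol. It fell 9.76-fold (log2 -3.29 ± 0.35, edgeR adjusted p 0.0381) and was called in all 13 alternative fits. The other marker called was GATA3, whose values stand with the transcription factors. DESeq2 called 3 lower and limma-voom 1, CHGA. In 7 of the 10 both ATRA libraries were below both ethanol libraries and in 1 above, against 21.7% and 23.8% of all genes, and the median log2 fold change was -0.48. Of 16 markers of other cell types 15 were in the table and 11 passed the filter on low counts, of which 0 were called and 6 had an unadjusted p under 0.05 (edgeR quasi-likelihood). DESeq2 called 4 higher and limma-voom 0, while of all genes they called 7.25% and 0.265% in either direction. Of all genes tested 15.9% had an unadjusted p under 0.05 (edgeR quasi-likelihood). The median log2 fold change of the 11 markers was 2.31. The 15 markers in the table had summed levels of 150.03 and 122.7 CPM with ATRA and 65.0 and 126.9 CPM with ethanol. Of these sums PDGFRB, named after its values were seen, gave 48.4 and 73.5 CPM with ATRA and 53.2 and 115 CPM with ethanol. In 7 of the 11 tested both ATRA libraries were above both ethanol libraries and in 0 below, against 23.8% and 21.7% of all genes. The macrophage marker CD68 had 0 reads in all 4 libraries. The part of either marker list in the values below was not tested. Mitochondrial ribosomal RNA took 2.49% and 5.96% of the reads in libraries 1 of ATRA and ethanol and 0.130% and 0.0291% in libraries 2, so differences within libraries of the same number are given beside the fitted ones.

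The gene for the endocrine vesicle transporter, SLC18A1, fell with ATRA, and it was the 1 gene of the 9 that passed the test. The synthesis genes TH, GCH1, DDC and DBH, the neuronal transporter gene SLC18A2 and the uptake gene SLC6A2 had fitted differences of less than 1 on the log2 scale that did not pass. MAOA had a fitted level 10.1-fold higher with ATRA, also without passing, and MAOB was close to silent. In bulk RNA, fewer cells that express a gene and less of its RNA per cell cannot be told apart. Of the 9 genes 8 passed the filter on low counts and were tested with edgeR's quasi-likelihood test. Of these 8, 1 was called lower and 0 were called higher at an adjusted p of 0.05, while 2 had an unadjusted p under 0.05. Over all 18900 genes tested 0.153% were called lower, 0.545% higher and 0.698% in either direction, and 15.9% had an unadjusted p under 0.05. DESeq2 called 1 of the 8 higher, MAOA, and 1 lower, SLC18A1, with 7.25% of all genes called in either direction. Limma-voom called 0 higher and 1 lower, SLC18A1, with 0.265% of all genes called in either direction. In a fit that left out 1 library, its group had a lone library, assumed to vary like those of the other group, whose 2 libraries alone gave a gene's own spread. Such fits called 4.2% to 6.96% of all genes, so a call gained in one of them is not a sign of stability. The median log2 fold change of the 8 was -0.17, against 0.01 over all genes tested.

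**Figure D1:**
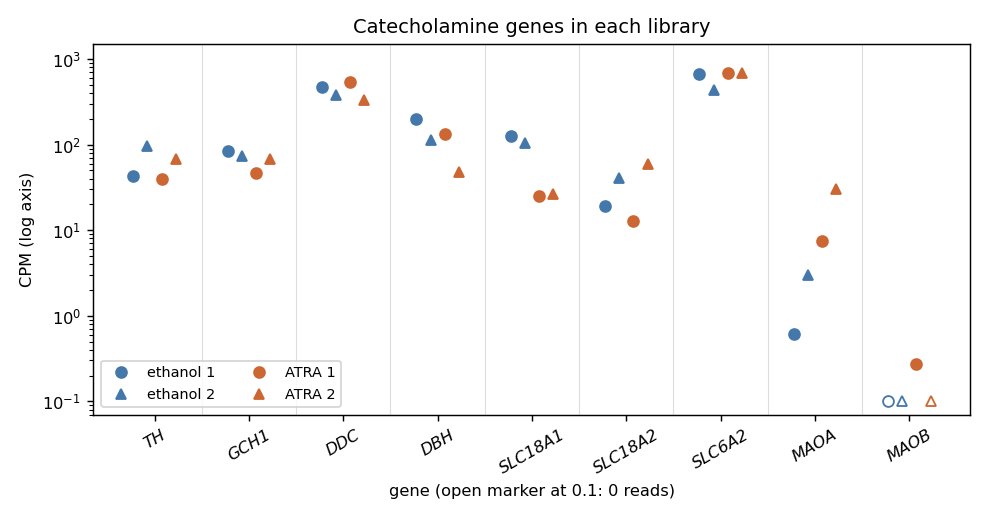
Level of each of the 9 genes in each library, in CPM on a log axis. Circles are libraries 1 and triangles libraries 2, in blue for ethanol and orange for ATRA, and open markers at the foot stand for 0 reads. SLC18A1 lies at 24.8 and 26.6 CPM with ATRA, under both ethanol libraries, and MAOA at 7.38 and 30.3 CPM, above both.

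Synthesis of L-DOPA came first. TH, the rate-limiting enzyme of the pathway, had 40.03 and 68.1 CPM in ATRA libraries 1 and 2, and 43.2 and 97.4 CPM in ethanol libraries 1 and 2. The groups overlapped, since both libraries 1 were low and both libraries 2 were high. The log2 fold change was -0.38 ± 0.46 (SE), with a 95% interval of -1.50 to 0.74 and an adjusted p of 0.793 (edgeR quasi-likelihood, n = 2 per group). Without ethanol library 2 its sign turned, to 0.34. GCH1, which supplies the cofactor of TH, had 46.7 and 67.7 CPM with ATRA and 85.1 and 74.03 CPM with ethanol. Both ATRA libraries were below both ethanol libraries, with a wide gap in libraries 1 and a narrow one in libraries 2. Its log2 fold change was -0.47 ± 0.28 (95% interval -1.16 to 0.21, edgeR adjusted p 0.498), and the differences within libraries 1 and 2 were -0.86 and -0.13.

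The next enzymes make dopamine and noradrenaline. DDC, which also makes serotonin in other cells, had 546 and 329 CPM with ATRA and 473 and 383 CPM with ethanol. The 2 ATRA libraries lay on either side of the ethanol libraries, and the log2 fold change was 0.03 ± 0.32 (95% interval -0.76 to 0.82, edgeR adjusted p 0.984), negative without ATRA library 1 (-0.38) or ethanol library 2 (-0.0993). DBH had 133 and 47.3 CPM with ATRA and 201 and 112 CPM with ethanol. ATRA library 1 stood above ethanol library 2, so the groups overlapped, while within each library number ATRA was lower, by log2 values of -0.59 and -1.24. The log2 fold change of DBH was -0.79 ± 0.54 (95% interval -2.11 to 0.53, edgeR adjusted p 0.577), and it moved with the library left out. It was at -0.23 without ATRA library 2 (edgeR adjusted p 0.926), -0.35 without ethanol library 1 (edgeR adjusted p 0.879), -1.14 without ethanol library 2 (edgeR adjusted p 0.124) and -1.72 without ATRA library 1 (edgeR adjusted p 0.0122), of which the last was a call, in a fit that called 4.2% of all genes. An antisense gene, DBH-AS1, shares 118 exon bases with DBH in the GENCODE 29 annotation and had 6.10 and 2.45 CPM with ATRA and 11.9 and 6.89 CPM with ethanol. The strand setting of the counting is not given in the sources used here, so reads of that stretch cannot be assigned to either gene. DBH-AS1 had fewer reads than DBH in all 4 libraries.

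Of the vesicular transporter genes, SLC18A1 had 24.8 and 26.6 CPM with ATRA (366 and 445 reads) and 125 and 105 CPM with ethanol (1622 and 2111 reads). The libraries of a group lay close together, and the groups were far apart. SLC18A1 fell 4.46-fold. The log2 fold change was -2.16 ± 0.25 (95% interval -2.77 to -1.55, edgeR adjusted p 0.0397), with -2.33 and -1.97 within libraries 1 and 2. That adjusted p is near the threshold of 0.05. It was 0.0476 with limma-voom and 0.0437 with edgeR on library size alone. The call held in all 13 alternative fits, with log2 values from -2.26 to -2.07.

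SLC18A2 had 12.9 and 58.6 CPM with ATRA and 19.2 and 41.1 CPM with ethanol. It was low in both libraries 1 and high in both libraries 2, and the ATRA values enclosed the ethanol values. Its log2 fold change was 0.24 ± 0.72 (95% interval -1.51 to 2.00, edgeR adjusted p 0.935), with opposite signs within libraries 1 and 2 (-0.58 and 0.51). The fitted sign turned without ATRA library 2 (-1.25) and without ethanol library 1 (-0.25). In GENCODE 29, 52.04% of its exon bases (2157 bases) are shared with PDZD8, a gene on the opposite strand. PDZD8 had 64.4 and 82.4 CPM with ATRA and 83.8 and 97.5 CPM with ethanol, and more reads than SLC18A2 in each library. Whether reads of that stretch entered the count of SLC18A2 was not tested.

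The ratio of SLC18A1 to SLC18A2 reads within a library does not depend on how libraries are scaled. It was 1.93 and 0.454 in ATRA libraries 1 and 2, and 6.49 and 2.55 in ethanol libraries 1 and 2. Both ATRA ratios were below both ethanol ratios, and the mean log2 ratio was 2.12 lower (-0.10 ± 1.47 against 2.02 ± 0.95, SD, n = 2). An exact two-sided permutation test gave p = 0.333, the smallest that 2 libraries against 2 allow. Within each group the ratio was also lower in library 2 than in library 1.

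**Figure D2:**
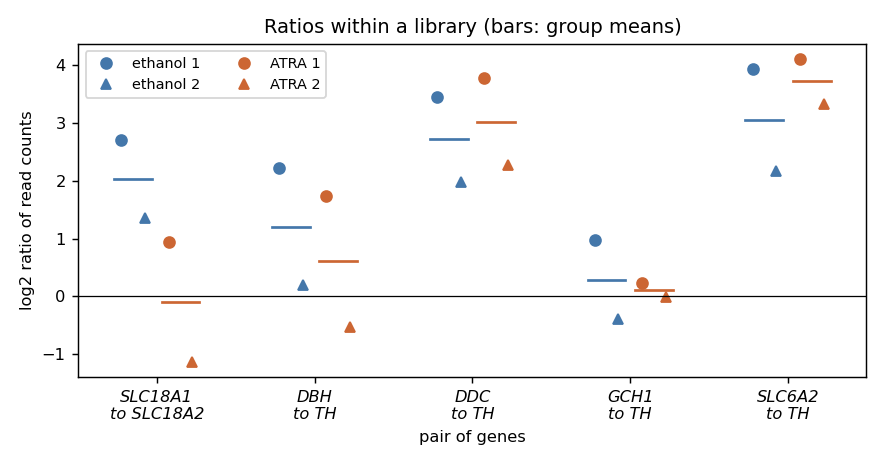
Log2 ratio of the read counts of 2 genes within each library, for 5 pairs, with group means as bars. For SLC18A1 to SLC18A2 both ATRA libraries lie below both ethanol libraries, and in each of the other pairs the groups overlap, with library 1 above library 2 in each group.

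The remaining ratios were set against TH. DBH reads were 3.33 and 0.694 times TH reads with ATRA and 4.65 and 1.15 times with ethanol. DDC reads were 13.7 and 4.84 times those of TH with ATRA and 10.96 and 3.93 times with ethanol. For the ratios of DBH, DDC, GCH1 and SLC6A2 to TH the groups overlapped, and exact two-sided permutation p was between 0.667 and 1. Library 1 had the higher ratio in both treatments for all 4 pairs.

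SLC6A2, the reuptake transporter that also carries the radiotracer MIBG into neuroblastoma cells, was the gene of the 9 with the most reads. It had 688 and 685 CPM with ATRA and 662 and 439 CPM with ethanol. The ATRA libraries were nearly equal and just above ethanol library 1, with ethanol library 2 apart from the other 3. The log2 fold change was 0.32 ± 0.29 (95% interval -0.39 to 1.03, edgeR adjusted p 0.701), with 0.05 and 0.64 within libraries 1 and 2. Another GENCODE 29 gene model on the same strand shares 977 of its exon bases (17.9%).

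The monoamine oxidase genes MAOA and MAOB lie side by side on the X chromosome and encode closely related enzymes, of which A prefers noradrenaline and serotonin. MAOA had 7.38 and 30.3 CPM with ATRA (109 and 507 reads) and 0.616 and 3.02 CPM with ethanol (8 and 61 reads). Both ATRA libraries were above both ethanol libraries, and in each treatment library 2 was well above library 1. The exact Poisson 95% interval of the lowest value, 8 reads, ran from 0.266 to 1.21 CPM, which covers counting error only. The log2 fold change was 3.33 ± 0.95 (95% interval 1.01 to 5.66, 10.1-fold), with an unadjusted p of 0.0127 and an adjusted p of 0.170 (edgeR quasi-likelihood). Within libraries 1 and within libraries 2 the log2 differences were 3.34 and 3.27. The fits without a library, each with a lone library in 1 group, were split. MAOA was called without ATRA library 1 (3.99, adjusted p 2.99e-09) and without ethanol library 2 (4.94, adjusted p 1.31e-07). It was not called without ATRA library 2 (1.97, adjusted p 0.183) or without ethanol library 1 (2.59, adjusted p 0.0900). These 4 fits called 4.2%, 5.88%, 6.96% and 4.35% of all genes, in that order, far more than the fit to all libraries. DESeq2 called MAOA (3.33, adjusted p 0.00159) and limma-voom did not (3.28, adjusted p 0.229).

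MAOB had 4 reads in ATRA library 1 and 0 reads in the other 3 libraries, and it was not tested. The 4 reads correspond to 0.271 CPM, with an exact Poisson 95% interval of 0.0738 to 0.694 CPM. The 0 reads of both ethanol libraries together allow a level of up to 0.0904 CPM (3 reads), so a low level of MAOB was not detectable at this depth.

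**Figure D3:**
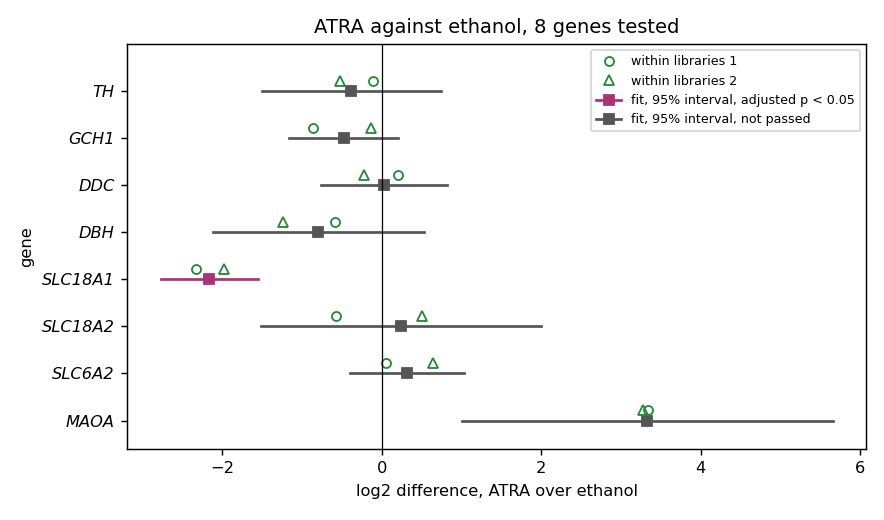
Log2 difference of ATRA over ethanol for the 8 genes tested. Squares and bars are the edgeR fit with its 95% interval, and open green markers are the differences within libraries 1 (circles) and within libraries 2 (triangles). SLC18A1 is the gene that passed (-2.16), and MAOA (3.33) has the widest interval.

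The sequences just before the starts of MAOA and MAOB, the neighbouring genes with unlike levels, are shown beside those of DBH and SLC18A2, the noradrenaline enzyme and the neuronal vesicle transporter. RefSeq promoter entries (GRCh38.p14) matched 5 of the 9 genes: DDC (with 2 entries), DBH, SLC18A2, MAOA and MAOB. Each sequence is the 250 bases before the start, 5′ to 3′ on the strand of the gene: chrX:43656049-43656298 (plus strand) for MAOA, chrX:43882451-43882700 (minus strand) for MAOB, chr9:133636113-133636362 (plus strand) for DBH and chr10:117240864-117241113 (plus strand) for SLC18A2. Capitals mark matches, on either strand, to the GC box GGGCGG and to TGACGTC, the first 7 letters of the cAMP response element TGACGTCA.
MAOA: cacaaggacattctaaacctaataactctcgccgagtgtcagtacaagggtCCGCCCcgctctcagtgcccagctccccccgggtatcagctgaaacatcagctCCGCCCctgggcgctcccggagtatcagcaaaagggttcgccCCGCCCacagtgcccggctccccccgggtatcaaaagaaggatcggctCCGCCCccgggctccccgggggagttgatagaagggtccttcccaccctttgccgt
MAOB: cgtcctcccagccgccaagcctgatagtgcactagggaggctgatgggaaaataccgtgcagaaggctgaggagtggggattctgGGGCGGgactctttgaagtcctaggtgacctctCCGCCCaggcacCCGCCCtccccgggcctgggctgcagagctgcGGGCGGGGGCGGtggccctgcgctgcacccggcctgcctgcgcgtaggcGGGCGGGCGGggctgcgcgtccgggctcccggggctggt
DBH: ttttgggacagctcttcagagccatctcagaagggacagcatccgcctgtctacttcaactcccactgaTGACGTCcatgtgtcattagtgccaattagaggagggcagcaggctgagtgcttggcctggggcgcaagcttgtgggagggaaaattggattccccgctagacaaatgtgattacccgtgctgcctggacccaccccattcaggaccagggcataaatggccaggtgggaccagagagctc
SLC18A2: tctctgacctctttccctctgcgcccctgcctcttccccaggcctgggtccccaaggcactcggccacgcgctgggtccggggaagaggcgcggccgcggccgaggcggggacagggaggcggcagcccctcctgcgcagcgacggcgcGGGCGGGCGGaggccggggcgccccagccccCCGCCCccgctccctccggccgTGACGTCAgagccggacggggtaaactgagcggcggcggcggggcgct
The GC box, known as a site of SP1-type factors, had 4 matches before MAOA and 7 before MAOB, some of which overlap, 3 before SLC18A2 and 0 before DBH or DDC. Of all 35116 RefSeq windows of that length 42.6% hold it. The 7 letters TGACGTC were found before DBH, at -181 from the start, and before SLC18A2, where the full TGACGTCA stands at -48 and so matches on both strands. They occur in 3.12% of all windows, and the full 8 letters in 1.65%. AGGTCA, the hexamer that retinoid receptors are known to bind in pairs, had 1 match each before SLC18A2, MAOB and the upstream DDC start, 0 before MAOA and DBH, and is in 12.1% of windows. A direct repeat of AGGTCA with 5 bases between the copies had no match in the 6 windows and is in 0.00285% of all windows. These are matches of letters in a short window, and no binding was measured.

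Levels were compared between genes as CPM per kilobase of exon, with exon lengths from GENCODE 29. With ethanol the order was DDC (137 ± 20.3, SD, n = 2), SLC6A2 (101 ± 28.9), DBH (41.4 ± 16.6), SLC18A1 (29.3 ± 3.67), GCH1 (27.0 ± 2.65), TH (21.7 ± 11.8), SLC18A2 (7.28 ± 3.72), MAOA (0.329 ± 0.308) and MAOB at 0. Among neighbours in this order, the ranges of DBH and SLC18A1, of SLC18A1 and GCH1, and of GCH1 and TH overlapped. With ATRA, DDC and SLC6A2 still led (140 ± 49.0 and 126 ± 0.336 CPM per kilobase) with overlapping ranges. DBH was at 23.9 ± 16.1, GCH1 at 19.4 ± 5.03, TH at 16.7 ± 6.12 and SLC18A2 at 8.62 ± 7.81, each overlapping the next. SLC18A1 was then at 6.57 ± 0.331, below TH and within the range of SLC18A2, and MAOA at 3.41 ± 2.94. The vesicle transporter gene with the higher mean level per kilobase was thus SLC18A1 with ethanol and SLC18A2 with ATRA, although with ATRA the ranges overlapped. The level of SLC18A2 per kilobase is uncertain, since 52.04% of its exon bases are shared with PDZD8. How reads of that stretch were counted is not known.

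Some of the 9 genes differed more between libraries 1 and 2 than between treatments. Log2 differences of library 2 over library 1 were 0.76 and 1.17 for TH in ATRA and ethanol, 2.18 and 1.09 for SLC18A2, and 2.02 and 2.09 for MAOA. They were negative for DBH, at -1.49 and -0.84, and for DDC, at -0.73 and -0.30. For SLC18A1 they were 0.10 and -0.26. Libraries 2 were above libraries 1 in both treatments for TH, SLC18A2 and MAOA, 3 of the 8, and for 37% of all genes. They were below in both for DBH, DDC and SLC6A2, likewise 3 of the 8, and for 36.5% of all genes. Averaged over the groups, the difference by library number was larger than that by treatment for TH, DDC, DBH and SLC18A2, 4 of the 8, and it was so for 49.5% of all genes tested. Libraries 2 were above libraries 1 by over 1 on the log2 scale in both treatments for 3.42% of all genes. Of the 8 genes 4 had groups that did not overlap, SLC6A2 and MAOA higher with ATRA and GCH1 and SLC18A1 lower, against 45.5% of all genes.

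**Figure D4:**
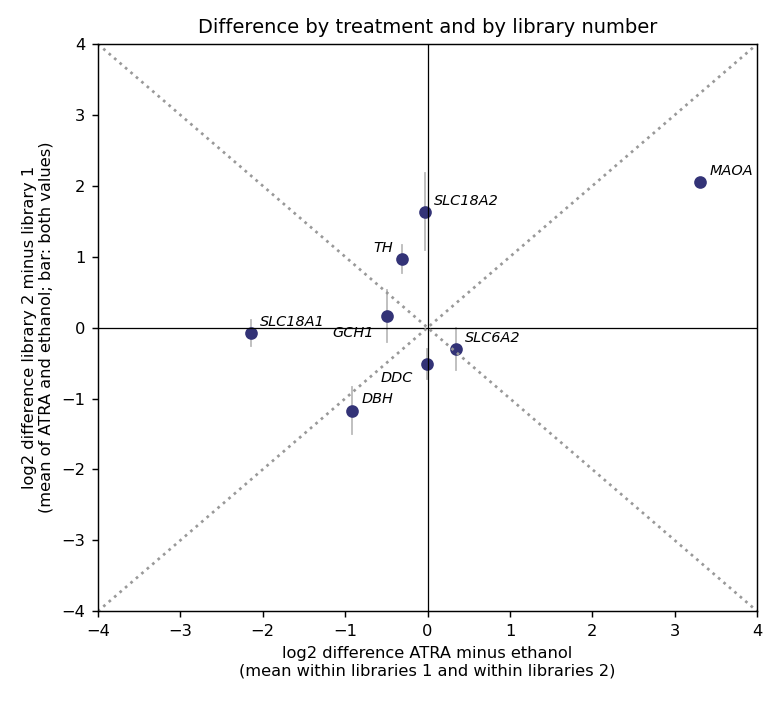
For the 8 genes tested, the log2 difference of ATRA over ethanol (horizontal, mean of the differences within libraries 1 and within libraries 2) against that of library 2 over library 1 (vertical, mean of both treatments, with a grey bar joining the 2 values). Dotted lines mark equal sizes, so TH, DDC, DBH and SLC18A2 lie where the difference by library number was the larger, and SLC18A1 and MAOA where that by treatment was.

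Around the 9 genes, the supply of cofactors had 0 members called. For this and the lists that follow, 15.9% of all genes tested had an unadjusted p under 0.05 (edgeR quasi-likelihood). DESeq2 called 7.25% of all genes and limma-voom 0.265%, in either direction. Of 7 tetrahydrobiopterin genes, all tested, 0 were called and 3 had an unadjusted p under 0.05 (edgeR quasi-likelihood), and DESeq2 and limma-voom each called 0. The median log2 fold change was -0.24. In 4 of the 7 both ATRA libraries were below both ethanol libraries and in 2 above, against 21.7% and 23.8% of all genes. SPR, which makes the final step of tetrahydrobiopterin synthesis, had 2.71 and 2.75 CPM with ATRA and 6.62 and 5.60 CPM with ethanol (log2 -1.16 ± 0.45, edgeR adjusted p 0.289).

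Of 8 other synthesis and cofactor genes 6 were tested, 0 were called and 2 had an unadjusted p under 0.05 (edgeR quasi-likelihood). DESeq2 called 1 higher, ATP7A, and limma-voom 0. For the 6 tested the log2 fold change had a median of 0.45. Both ATRA libraries were above both ethanol libraries in 3 of the 6 and below in 0, against 23.8% and 21.7% of all genes. ATP7A, the copper pump that loads secreted copper enzymes such as DBH, had 752 and 1104 CPM with ATRA and 96.5 and 175 CPM with ethanol, a log2 difference of 2.77 ± 0.40 that missed the threshold (edgeR adjusted p 0.0528). MOXD1, a DBH-like monooxygenase of unclear substrate, had 62.3 and 51.4 CPM with ATRA and 0 and 1.49 CPM with ethanol (log2 6.11 ± 1.03, edgeR adjusted p 0.0695). Both were also called higher in each of the 4 fits that left out 1 library, which called 4.2% to 6.96% of all genes. PNMT, which turns noradrenaline into adrenaline, had 9 and 43 reads with ATRA and 2 and 11 with ethanol and did not pass the filter. It was named after its values were seen.

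For breakdown beside the monoamine oxidases, 9 of 12 genes were tested, 0 were called and 1 had an unadjusted p under 0.05 (edgeR quasi-likelihood), and DESeq2 and limma-voom called 0. Their median log2 fold change was -0.17. In 3 of the 9 both ATRA libraries were above both ethanol libraries and in 2 below, against 23.8% and 21.7% of all genes. The aldehyde dehydrogenase gene ALDH3A2 was at 0.92 ± 0.34 (edgeR adjusted p 0.273; called without ATRA library 1, in a fit that called 4.2% of all genes) and the aldose reductase gene AKR1B1 at -0.48 ± 0.23 (edgeR adjusted p 0.395).

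Of 8 other monoamine and amine transporter genes 4 were tested, 0 were called, and 1 had an unadjusted p under 0.05 (edgeR quasi-likelihood), with 0 calls by DESeq2 and limma-voom. Their log2 fold changes had a median of 0.52. Both ATRA libraries were above both ethanol libraries in 2 of the 4 and below in 0, against 23.8% and 21.7% of all genes. SLC18A3, the vesicular acetylcholine transporter, had 15.5 and 21.5 CPM with ATRA and 8.47 and 8.08 CPM with ethanol (log2 1.16 ± 0.34, edgeR adjusted p 0.172). SLC29A4, a plasma membrane monoamine transporter, was at -0.32 ± 0.32 (edgeR adjusted p 0.733). The dopamine and serotonin uptake genes SLC6A3 and SLC6A4, named after their values were seen, had at most 3 and 14 reads in a library.

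The vesicular proton pump drives amine loading. The 18 of its genes listed here were all tested, 0 were called and 4 had an unadjusted p under 0.05 (edgeR quasi-likelihood), with 0 calls by DESeq2 and limma-voom. The median log2 fold change was 0.36, with a range of -0.36 to 0.87. In 9 genes both ATRA libraries were above both ethanol libraries and in 2 below, against 23.8% and 21.7% of all genes. The subunit genes ATP6V0E1 and ATP6V0D1 were at 0.87 ± 0.24 and 0.73 ± 0.24 (edgeR adjusted p 0.157 and 0.210).

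Of 14 adrenergic and dopamine receptor genes 5 were tested, 0 were called, and 2 had an unadjusted p under 0.05 (edgeR quasi-likelihood). In 3 of the 5 both ATRA libraries were below both ethanol libraries and in 0 above, against 21.7% and 23.8% of all genes. DESeq2 called 2 lower and limma-voom 0. Of all genes tested 15.9% had an unadjusted p under 0.05 (edgeR quasi-likelihood), and DESeq2 called 7.25% in either direction. Over the 5 tested the median log2 fold change was -1.45. The 2 were ADRA2C, a receptor that restrains transmitter release, with 21.4 and 15.2 CPM with ATRA against 63.9 and 48.8 CPM with ethanol, and the dopamine receptor gene DRD2, with 1.90 and 2.63 CPM against 33.3 and 9.76 CPM. Their log2 fold changes were -1.62 ± 0.31 and -3.24 ± 0.67 (edgeR adjusted p 0.0810 and 0.0949). ADRA2C was called in each of the 4 fits without a library, and DRD2 in all of them but that without ethanol library 1. These fits, with a lone library in 1 group, called 4.2% to 6.96% of all genes.

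Of 16 transcription factor genes known to act on the pathway 15 were tested, 2 were called lower, 0 were called higher and 5 had an unadjusted p under 0.05 (edgeR quasi-likelihood). GATA3 fell, with a log2 fold change of -2.64 ± 0.30 (edgeR adjusted p 0.0381), as did HAND1 with -2.08 ± 0.26 (edgeR adjusted p 0.0410), and neither passed with limma-voom (adjusted p 0.0505 and 0.0515). DESeq2 called 4 lower and 0 higher, and limma-voom 0. Of all genes tested, edgeR called 0.153% lower and 15.9% had an unadjusted p under 0.05. DESeq2 called 7.25% of all genes in either direction. The median log2 fold change of the list was -0.38. Both ATRA libraries were below both ethanol libraries in 8 of the 15 tested and above in 2, against 21.7% and 23.8% of all genes. PHOX2A, a homeobox factor known to bind the TH and DBH promoters and named here after its values were seen, had 454 and 275 CPM with ATRA and 221 and 165 CPM with ethanol (log2 0.92 ± 0.33, edgeR adjusted p 0.261). HAND2 and GATA2, from the same list and likewise named after their values were seen, were at -0.30 ± 0.24 and -0.38 ± 0.25.

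Of 14 genes for kinases, a phosphatase and 14-3-3 proteins that regulate the TH protein, all were tested, 0 were called and 4 had an unadjusted p under 0.05 (edgeR quasi-likelihood). In 6 of the 14 both ATRA libraries were above both ethanol libraries and in 1 below, against 23.8% and 21.7% of all genes. DESeq2 called 2 higher, CAMK2B and MAPKAPK2, and 1 lower, PRKCA, and limma-voom called 0. Of all genes tested 15.9% had an unadjusted p under 0.05 (edgeR quasi-likelihood), and DESeq2 called 7.25% in either direction. The median log2 fold change was 0.30, and without a library 1 to 2 were called higher and 0 to 1 lower, in fits that called 4.2% to 6.96% of all genes. The 1 called lower was PRKCA, without ATRA library 1 and without ethanol library 1. The kinase genes CAMK2B and MAPKAPK2 were at 3.16 ± 0.70 and 1.31 ± 0.34 (edgeR adjusted p 0.108 and 0.142). The counts say nothing of the amount or phosphorylation of the enzyme.

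**Figure D5:**
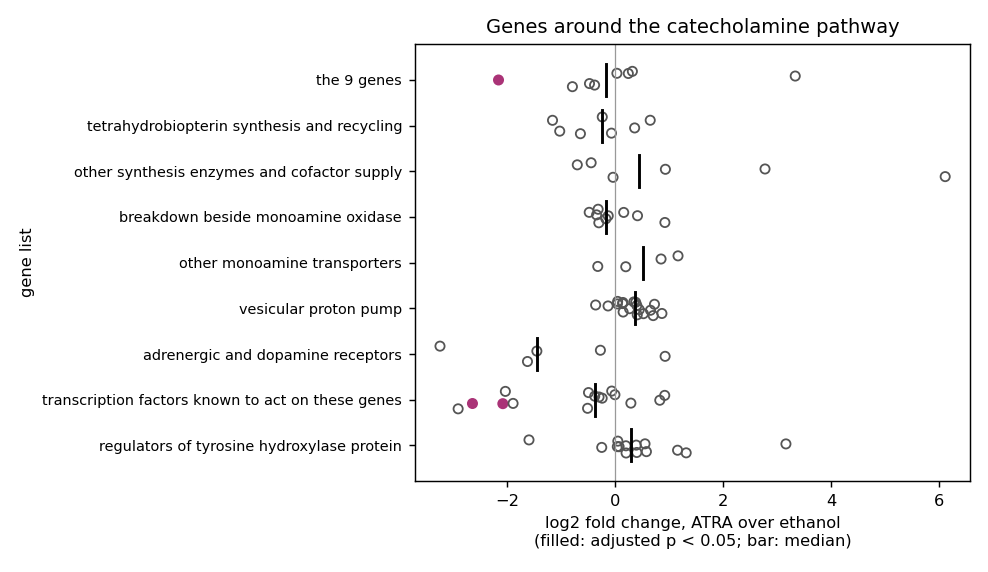
Log2 fold change of ATRA over ethanol for every tested gene of the 9 and of 8 lists around them. Each circle is a gene, filled where edgeR's adjusted p was under 0.05 (SLC18A1, GATA3 and HAND1), and black bars are medians, from -1.45 for the receptors to 0.52 for the other transporters.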

How the data were processed

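Total RNA of 4 samples of SK-N-BE(2)C cells was depleted of ribosomal RNA and made into directional libraries, per the labels' protocols. Values in the deposited table are unscaled read counts, 1 row per gene symbol. STAR 2.5.2b, featureCounts 1.5.1 and hg19 are named in the submitters' processing notes, with no role or order; for the annotation, strand setting and treatment of shared reads the entry is: not given in the sources used here. Groups came from the treatment labels and titles.

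Genes were filtered with filterByExpr (minimum count 10), scaled by TMM and fitted with edgeR 4.0.16 in R 4.3.3 (quasi-likelihood F test, robust, treatment as the sole term, 2 residual degrees of freedom). P-values are two-sided and Benjamini-Hochberg adjusted over 18900 genes, with a threshold of 0.05. Standard errors are the log2 fold change divided by the root of F, and 95% intervals use the moderated degrees of freedom. CPM use TMM-scaled library sizes. Differences within library numbers use log2 CPM with a prior count of 2, and ratios a pseudocount of 0.5 reads. Reads carried no molecular identifiers, so Poisson intervals and floors of 3 reads cover counting error only. DESeq2 1.42.0, limma 3.58.1, other scalings, filters and left-out libraries were alternatives. The 9 genes were all named. Each further list gave up to 2 called genes per direction or, failing any call, the 2 of lowest p, among genes averaging log2 CPM 1 or more. A gene that this rule names is not reported here. Genes and lists were chosen with earlier results of these data known. Exon lengths and overlaps come from GENCODE 29 and promoter sequence from RefSeq, both of a later build than the counts.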

Additional observations from a re-analysis of the deposited data

How the results depend on the processing

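With 2 libraries per group and 2 residual degrees of freedom, the number of calls depended strongly on the test. SLC18A1 was called lower in all 13 alternative fits. Members called higher were 1, MAOA, without the filter (1 count sufficed), with DESeq2, and in the fits with a replicate block, and 0 to 1 without a library. Members called lower were 2 with the replicate block in edgeR and in DESeq2, where DBH joined SLC18A1 (log2 -0.91, edgeR adjusted p 0.00960), and 1 to 2 without a library.

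Over all genes, 103 were called higher and 29 lower. These became 1126 and 695 without the filter, 874 and 496 with DESeq2, 43 and 7 with limma-voom, and 547 to 838 and 231 to 604 without a library. Without mitochondrially encoded genes 44 were called lower. With the replicate number as a block edgeR called 2325 higher and 1773 lower, and DESeq2 1519 and 1185, 21.7% and 14.9% of the genes tested. The labels do not say that the number pairs libraries. Across 18900 genes, which are not independent replicates, the difference of library 2 over library 1 in ATRA correlated with that in ethanol at 0.632. Under the block MAOA was at 3.40 (edgeR adjusted p 0.000125).

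Near-zero values changed sign. DDC was at -0.0227 with library size alone, -0.0034 without the filter, -0.0052 with limma-voom, -0.0054 with the edgeR replicate block and -0.0221 with that of DESeq2, and from -0.38 to 0.34 without a library. SLC18A2 was at -0.0494 with limma-voom, -0.0324 with the DESeq2 replicate block, and from -1.25 to 0.94 without a library. TH ran from -0.90 to 0.34 without a library. Differences of the log2 ratios, ATRA minus ethanol, ran without a library from -1.73 to 0.53 for DBH to TH, -0.44 to 1.06 for DDC to TH, -0.87 to 0.50 for GCH1 to TH, -0.22 to 1.55 for SLC6A2 to TH and -3.16 to -1.08 for SLC18A1 to SLC18A2. For MAOA to MAOB they ran from -0.91 to 4.47, set by the pseudocount since MAOB had 0 reads in 3 libraries. No scaling moved the median of all genes by over 0.1 on the log2 scale.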
